A study of Mus musculus with 4 samples.

Results

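Dendritic cells grown from mouse bone marrow were compared with their LPS-matured counterparts by small RNA sequencing. Immature dendritic cells (imDC) were C57BL/6J bone marrow cells from mice of 5 to 6 weeks, cultured with GM-CSF (10 ng/mL) together with IL-4 (1 ng/mL) and harvested at day 6. Mature dendritic cells (maDC) came from the same kind of culture: the loosely adherent clusters left after a wash at day 4 were given 10 ng/mL LPS, a bacterial lipopolysaccharide sensed by Toll-like receptor 4, and CD11c-positive cells were taken with magnetic beads at day 8. The labels name the wash and the bead selection for maDC and not for imDC, so exposure to LPS, culture time, wash and selection cannot be told apart. The series holds 4 libraries, and the other 2, haematopoietic stem cells (HSC) and regulatory dendritic cells made from maDC on stroma (DCreg), are used here only as levels beside single miRNAs. Each cell type had 1 library, so no difference below has a replicate check, and no p-value is given.

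The comparison covers the miRNAs that reached 10 parts per 1000000 (ppm) in either library, after the deposited values of a mature miRNA were summed over its hairpins and scaled to the column total. These were 328 of the 1078 mature miRNAs in the deposited table, and 160 of them reached 100 ppm. For 282 the sequence files held at least 50 matching reads over both libraries, 46 had fewer, and 19 of those 46 had none. Levels below are deposited values in ppm unless reads are named, and a recounted value is the number of matching reads in ppm of all matched reads.

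A miRNA is cut from a hairpin precursor whose 5′ and 3′ arms can each yield a mature strand (5p and 3p), one of which is usually kept in an Argonaute protein while the other is degraded. Bases 2 to 8 of the strand, the seed, set most of its target choice, so miRNAs with the same seed form a family. Hairpins that lie close together are often cut from one primary transcript, and mature strands are further trimmed or extended at their 3′ end. In dendritic cells and macrophages LPS signalling through NF-kB is known to induce miR-155 and miR-146, let-7 is known for its accumulation in differentiated cells, and the miR-17-92 group is known for its activity in proliferating progenitors.

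The mature sequences that the results turn on are shown by seed family, 5′ to 3′, as given in the deposited table, with the seed in capitals. RefSeq (GRCm38) held a mature miRNA of the same name for 255 of the 328 miRNAs, a count by name and not by sequence. The first set shares the let-7 seed and holds the largest movement of reads between the libraries, followed by a let-7 partner strand, by the strands miR-99b-3p and miR-125a-5p encoded beside let-7e, and by miR-221-5p, encoded elsewhere and also higher in maDC.
let-7e-5p: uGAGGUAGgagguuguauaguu
let-7f-5p: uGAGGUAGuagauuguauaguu
let-7b-5p: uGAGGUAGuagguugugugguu
let-7i-5p: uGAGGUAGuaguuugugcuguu
let-7f-1-3p: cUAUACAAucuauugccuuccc
miR-99b-3p: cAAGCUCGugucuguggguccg
miR-125a-5p: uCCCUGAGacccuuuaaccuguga
miR-221-5p: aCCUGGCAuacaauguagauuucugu

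The second set holds strands that were far lower in maDC, with 3 seeds of the miR-17-92 group, the miR-27 seed and the miR-30 3p seed, and miR-30e-5p as the partner of miR-30e-3p.
miR-92a-3p: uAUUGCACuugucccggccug
miR-363-3p: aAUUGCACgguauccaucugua
miR-93-5p: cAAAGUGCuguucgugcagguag
miR-17-5p: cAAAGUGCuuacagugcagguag
miR-19b-3p: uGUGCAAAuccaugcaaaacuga
miR-27a-3p: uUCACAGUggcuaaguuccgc
miR-27b-3p: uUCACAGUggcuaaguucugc
miR-30e-3p: cUUUCAGUcggauguuuacagc
miR-30d-3p: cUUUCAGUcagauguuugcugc
miR-30e-5p: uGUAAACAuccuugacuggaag

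The third set holds the LPS-linked strands miR-155, miR-146 and miR-9, and the 2 members of the miR-34 seed family whose values went opposite ways.
miR-155-5p: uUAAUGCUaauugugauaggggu
miR-146a-5p: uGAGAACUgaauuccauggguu
miR-146b-5p: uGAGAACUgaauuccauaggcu
miR-9-5p: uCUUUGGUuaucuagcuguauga
miR-34a-5p: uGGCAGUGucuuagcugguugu
miR-34c-5p: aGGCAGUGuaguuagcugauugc

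The deposited values summed to 5251069 in imDC and 4475569 in maDC, and the sequence files held 6554086 and 6572858 reads. The match to the table's miRNAs took 80.4% of the imDC reads and 84.0% of the maDC reads. It required at least 16 exact bases, a start within 2 nt of the annotated one and no more than 5 unmatched 3′ bases. As the amplified reads carried no molecular identifiers, every 95% interval below (exact, Clopper-Pearson) covers counting error only. All 7 listed myeloid and dendritic cell markers were above 0 in both libraries, with a summed level of 104874 ppm in imDC and 83997 in maDC. They were above 0 in HSC as well, so they do not separate the libraries and do not check the maDC label. Of the 7, miR-223-3p, miR-142-3p, miR-511-5p, miR-155-5p and miR-146b-5p stood lower in maDC than in imDC. MiR-142-5p and miR-511-3p stood higher. Of the markers of other cells, the 4 erythroid ones in the table summed to 19.4 and 1.56 ppm with miR-144-5p at 0 in maDC, the 6 stromal ones to 63.2 and 185, the 3 lymphoid ones to 5756 and 4353, and the 5 epithelial ones to 267 and 125.3. The endothelial pair summed to 8.00 and 2.46 ppm, the neural one to 8.00 and 4.25, the muscle ones to 40.6 and 45.6 with 1 at 0 in maDC, and the hepatic one to 83.6 and 77.3. In bulk RNA, fewer cells of a type and less of a miRNA per cell cannot be told apart.

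Most miRNAs that differed were lower in maDC. At 2-fold or more on the deposited values, 35 of the 328 miRNAs (10.7%) were higher in maDC, 151 (46%) were lower and the rest were neither, with a median log2 ratio of -0.86. Recounted reads gave 9 higher (3.25%) and 173 lower (62.5%) among the 277 miRNAs that reached 10 ppm and had 50 reads, with a median of -1.44. All 161 miRNAs that were 2-fold different on the deposited values and had 50 reads had the same direction in the reads, where 131 of 136 lower ones and 8 of 25 higher ones were still 2-fold different. The recounted log2 ratio minus the deposited one had a median of -0.35, so lower calls were kept more easily than higher ones. Over the 282 miRNAs with 50 reads, the log2 ratios from the deposited values and from the reads had a Spearman correlation of 0.98 and a Pearson correlation of 0.97. Both come from the same libraries.

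**Figure D1:**
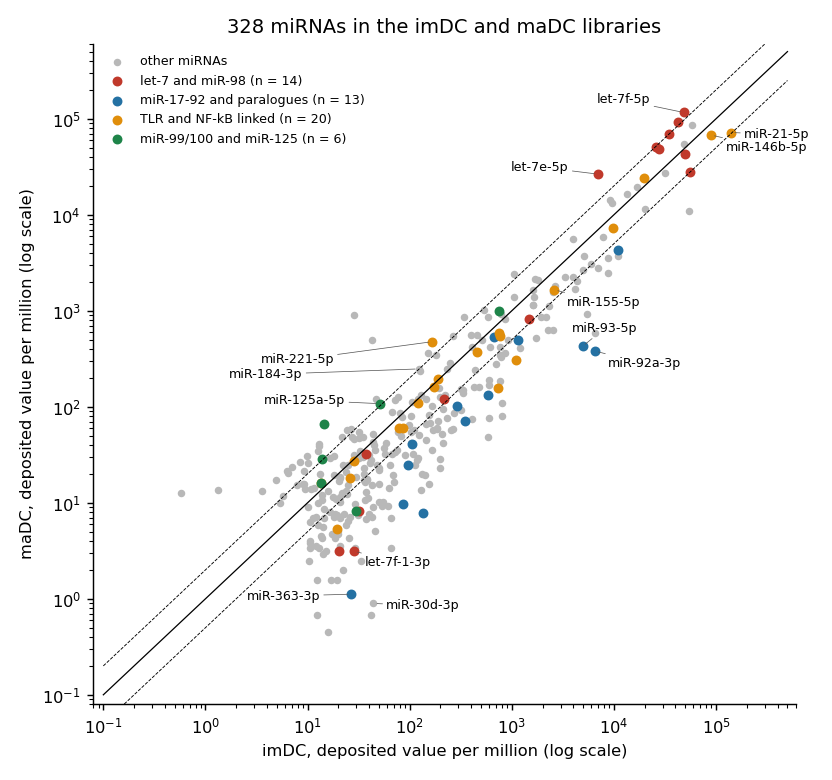
Deposited value in ppm of each of the 328 miRNAs in imDC (x axis) and maDC (y axis), both on log scales; the solid line marks equal levels, the dashed lines 2-fold, and colours 4 of the lists. Most points lie under the solid line, with miR-92a-3p, miR-93-5p, miR-363-3p and miR-30d-3p far under it, while let-7e-5p, let-7f-5p and miR-221-5p lie above the upper dashed line.

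The balance of higher and lower depended on how the libraries were put on one scale. The let-7 family, counted here with miR-98, held 29.1% of the deposited values in imDC and 47.7% in maDC, and 48.7% and 72.9% of the recounted reads. The other miRNAs thus shared 70.9% of the deposited values in imDC and 52.3% in maDC, so a miRNA with an unchanged share among them reads 1.36-fold lower, and 1.89-fold lower in the recounted reads (51.3% and 27.1%). Scaled to the total without let-7, 55 miRNAs (16.8%) were higher and 109 (33.2%) lower on the deposited values, with a median of -0.42. A trimmed mean (TMM) scaling gave 60 higher (18.3%) and 103 lower (31.4%), with a median of -0.31, and the median of ratios gave 64 (19.5%) and 89 (27.1%), with a median of -0.19. A change of scaling moves every log2 ratio by the same amount, so the order of the miRNAs stays. Scaled to all reads of the sequence file, 22 (6.71%) were higher and 174 (53%) lower, and 11 (3.97%) and 171 (61.7%) in the recount. Among the 160 miRNAs of 100 ppm or more, 15 (9.38%) were higher and 72 (45%) lower at the column total. In the recounted reads the median of ratios turned the split, with 69 higher (24.9%) and 64 lower (23.1%). With no measure of the amount of miRNA per cell, which of these scales is right was not tested. Over all 12 combinations of value and scaling, 10 of the 282 miRNAs with 50 reads were at least 2-fold higher in maDC and 59 were at least 2-fold lower. The 10 are let-7e-5p, miR-221-5p, miR-99b-3p, miR-455-3p, miR-143-3p, miR-200b-5p, miR-709, miR-1249-5p, miR-3095-3p and miR-5126. All but let-7e-5p and miR-221-5p had few reads, at most 56 in imDC and 174 in maDC. MiR-143-3p is also on the stromal marker list. The 59 include miR-92a-3p, miR-19b-3p, miR-93-5p, both miR-27 3p strands and miR-9-5p.

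**Figure D2:**
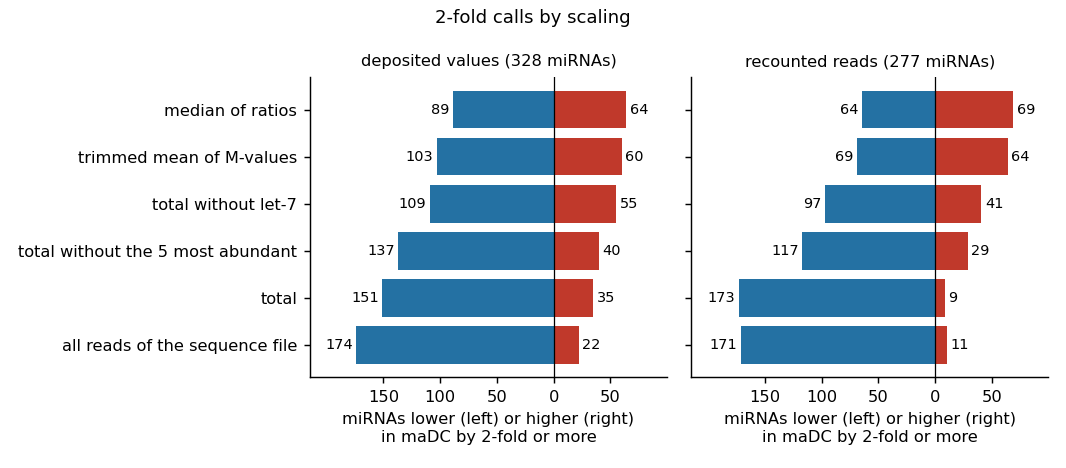
Number of miRNAs at least 2-fold lower (blue, to the left) or higher (red, to the right) in maDC under 6 scalings, for the deposited values (328 miRNAs) and the recounted reads (277 miRNAs). Lower outnumbers higher in every bar pair but that of the median of ratios on recounted reads, where 64 were lower and 69 higher.

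Members of the let-7 family, which binds through one shared seed and differs only outside it, did not move together. Let-7e-5p, at 6943 ppm in imDC and 26478 in maDC, was 3.81-fold higher in maDC. Its reads numbered 22547 and 87941, a recounted ratio of 3.72 (95% interval 3.67 to 3.78). Levels of let-7e-5p in the other libraries were 3606 in HSC and 51264 in DCreg, so its order of levels was HSC, imDC, maDC, DCreg. Let-7f-5p was the most abundant miRNA of maDC, at 48126 ppm in imDC and 116094 in maDC, with a recounted ratio of 1.94 (1.93 to 1.95). Let-7b-5p was 2.21-fold higher, from 42164 to 92999 ppm, let-7d-5p 2.03-fold and let-7c-5p 2.00-fold. In the reads these 4 were below 2-fold, and let-7a-5p, at 27632 and 48516 ppm, was below it in both.

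The other strands with this seed were below 2-fold on the deposited values. On the deposited values let-7i-5p was the most abundant let-7 of imDC, at 54972 ppm, and stood at 28079 in maDC, 1.96-fold lower. Its recounted level was 2.43-fold lower (2.41 to 2.45). The order differed in the imDC reads, where let-7i-5p had 221615. There let-7f-5p had 736368, let-7a-5p 630593 and let-7c-5p 415156. Let-7g-5p stood at 49326 and 42997 ppm, and miR-98-5p at 1460 and 819. Summed over the 9 miRNAs with the seed GAGGUAG, the level was 290525 ppm in imDC and 476801 in maDC. In imDC let-7i, let-7g, let-7f and let-7b lay between 42164 and 54972 ppm, and in maDC the same strands lay between 28079 and 116094.

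Several partner strands of let-7, which are normally discarded, were lower in maDC. Let-7f-1-3p stood at 28.6 and 3.13 ppm, with 140 reads in imDC and 10 in maDC, 14.7-fold lower in the reads (7.75 to 31.3). Its main strand let-7f-5p had 736368 and 1497580 reads. Let-7i-3p had 82 and 9 reads (34 and 9 of 21 nt or longer), and let-7d-3p had 855 and 395. Over the 14 let-7 and miR-98 miRNAs of both arms, 5 were higher, 3 lower and 6 neither, with a median log2 ratio of -0.21 against -0.86 over all 328. That median turned positive under the TMM scaling (0.34), the median of ratios (0.47) and the total without let-7 (0.23).

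The hairpin of let-7e lies between mir-99b and mir-125a on the forward strand at chr17:17830188-17830879 (GRCm38), within the gene Spaca6, where mir-125a overlaps an exon. Of the 5 miRNAs measured from these hairpins 4 were at least 2-fold higher in maDC and none lower on the deposited values, the highest median log2 ratio, 1.08, of the 35 clusters compared. In the reads let-7e-5p and miR-99b-3p were at least 2-fold higher and the others were not. MiR-125a-3p, 2-fold higher on the deposited values, had 56 reads in imDC and 73 in maDC. Of these, 26 and 29 were of 21 nt or longer. MiR-99b-3p stood at 14.5 and 65.5 ppm, with 50 and 174 reads and a recounted ratio of 3.32 (2.41 to 4.64). MiR-125a-5p, known as a regulator of NF-kB signalling through Tnfaip3, stood at 50.8 and 108 ppm, with a recounted ratio of 1.73 (1.45 to 2.07). The main strand miR-99b-5p stood at 755 and 987 ppm, with a recounted ratio of 1.06 (1.00 to 1.11). Both strands of mir-99b come from the same precursor, so its 3p strand differed from its 5p strand as well as between libraries. In DCreg the levels of let-7e-5p, miR-99b-3p and miR-125a-5p were higher than in maDC, at 84.4 ppm for miR-99b-3p and 423 for miR-125a-5p.

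Among miRNAs of 100 ppm or more, the other higher ones were few. MiR-221-5p, the lesser strand of a hairpin whose 3p strand is known to target Kit, stood at 165 and 476 ppm, with 675 and 1602 reads and a recounted ratio of 2.26 (2.07 to 2.48). Its partner miR-221-3p stood at 19677 and 24002 ppm, with a recounted ratio of 0.94. MiR-877-5p, which is cut from a short intron, had a recounted ratio of 1.79 (1.59 to 2.02). MiR-298-5p, at 1057 and 2409 ppm, had 1.72 (1.66 to 1.79), and miR-184-3p, at 122 and 248, had 1.70 (1.53 to 1.90). All 3 were over 2-fold on the deposited values and under it in the reads. MiR-199a-3p, which is on the stromal marker list, stood at 46.5 and 120 ppm and at 622 in HSC. The summed stromal markers were higher in maDC as well (above), and their part in the miR-199a-3p value was not tested.

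The largest ratio of the table was that of miR-5126, at 28.2 and 905 ppm, 32.1-fold higher. Its reads numbered 27 and 99, a ratio of 3.50 (2.27 to 5.57), and with reads of 21 nt or longer 6 were left in imDC and 0 in maDC. It is among the 10 that were higher in all 12 combinations, and none of its maDC reads reached 21 nt.

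Strands of the miR-17-92 group and its paralogues, which are known to drive cell division in progenitors, were lower in maDC almost throughout. Of its 13 miRNAs 12 were at least 2-fold lower and 1 was neither, with log2 ratios from -4.45 to -0.32 and a median of -2.15, against 46% lower and a median of -0.86 over all. MiR-92a-3p stood at 6531 ppm in imDC and 380 in maDC, with 11043 in HSC and 174 in DCreg beside them. It had 37894 reads in imDC and 1246 in maDC, 31.9-fold lower (30.1 to 33.8), and 19.9-fold lower with reads of 21 nt or longer. MiR-19b-3p had 1727 and 90 reads and was 20.1-fold lower (16.3 to 25.2). MiR-93-5p, of the mir-106b hairpin group, stood at 4920 and 424.97 ppm and was 14.7-fold lower in the reads (13.9 to 15.6). All 3 were near their HSC level in imDC, within 2-fold of it on the deposited values.

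Other strands of the group differed less. MiR-17-5p stood at 590 and 133 ppm, and miR-20a-5p at 347 and 71.1. MiR-25-3p, of the same hairpin group as miR-93, stood at 11014 and 4263 ppm, and miR-106b-5p at 1142 and 493. The member that was not 2-fold lower was miR-17-3p, at 671 and 536 ppm, from the same hairpin as miR-17-5p. MiR-363-3p, which has the miR-92a seed, had 108 and 3 reads and stood at 297.9 ppm in HSC and 0 in DCreg.

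The mir-23, mir-27 and mir-24 hairpins, 2 paralogous groups, were also lower, with 8 of 10 miRNAs at least 2-fold lower and a median of -1.78, against 46% and -0.86 over all 328. MiR-27b-3p, known for targets in lipid metabolism and inflammation, stood at 6544 and 585 ppm and was 19.6-fold lower in the reads (18.8 to 20.4). Read length bears on this value: 92.6% of its imDC reads and 55.5% of its maDC reads were shorter than 21 nt, and with reads of 21 nt or longer it was 3.53-fold lower. MiR-27a-3p, which differs from it by one base near the 3′ end, stood at 5450 and 932 ppm and was 11.4-fold lower (11.1 to 11.8), or 7.31-fold with the longer reads. MiR-23a-3p stood at 11001 and 3698 ppm, and miR-24-3p, at 1621 and 1151, was below 2-fold. Reads shared by both miR-27 strands were divided between them.

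All 10 miRNAs of the miR-30 family were at least 2-fold lower in maDC, 5 with the 5p seed GUAAACA, 3 with the 3p seed UUUCAGU and 2 other 3p strands, with a median of -2.09, against 46% lower and -0.86 over all. In mir-30e and mir-30d the 3p strand differed more than the 5p strand. MiR-30e-3p stood at 587 and 48.3 ppm and was 16.9-fold lower in the reads (14.2 to 20.3), while miR-30e-5p stood at 1199 and 414 and was 3.52-fold lower (3.31 to 3.73). MiR-30d-3p had 175 and 3 reads, 61.2-fold lower (20.6 to 299). Of its imDC reads 87.4% were shorter than 21 nt, and with reads of 21 nt or longer it had 22 and 2, 10.2-fold lower, which lies under that interval. Its partner miR-30d-5p, at 4324 and 2059 ppm, was 2.57-fold lower. MiR-30b-5p, at 112 and 24.8 ppm, was 6.23-fold lower (4.94 to 7.93). Under the median of ratios, the scaling with the fewest lower calls, the list medians were -1.48 for miR-17-92, -1.11 for mir-23, mir-27 and mir-24, and -1.42 for miR-30.

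**Figure D3:**
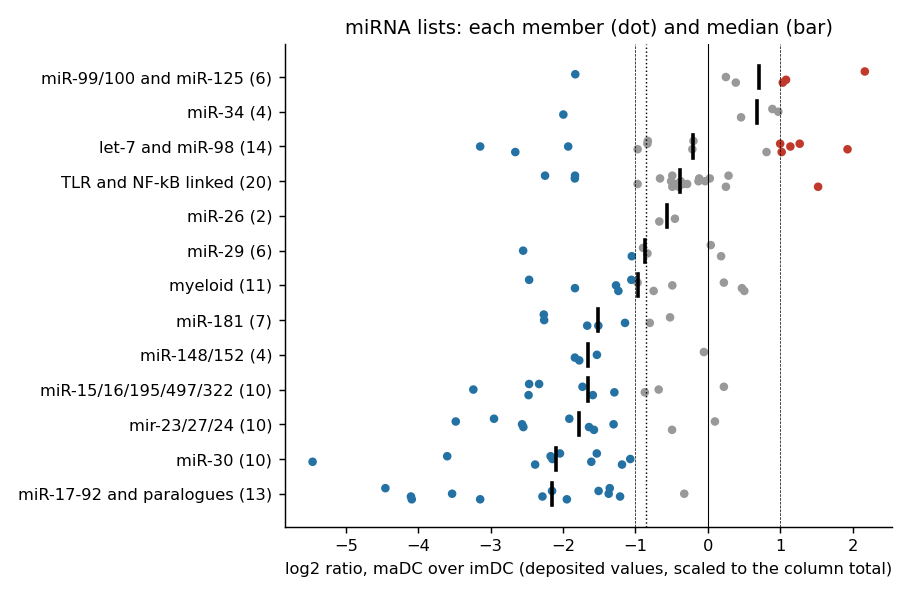
Log2 ratio of maDC over imDC (deposited values, scaled to the column total) of each miRNA in 13 lists, with list sizes in brackets; dots in blue and red are at least 2-fold lower and higher, bars are list medians, the dotted line is the median of all 328 and the dashed lines mark 2-fold. All 10 miR-30 dots and 12 of 13 miR-17-92 dots are blue, and the let-7 list spreads from -3.15 to 1.93.

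Several other abundant or well-known miRNAs were lower. MiR-378-3p, encoded in the gene for the metabolic coactivator PGC-1beta, was the fifth most abundant in imDC on the deposited values, at 54156 ppm, and stood at 10969 in maDC. It was 6.15-fold lower in the reads (6.08 to 6.22). MiR-21-5p, the most abundant miRNA of imDC on the deposited values, stood at 140653 and 71808 ppm, 1.96-fold lower, and 2.49-fold lower in the reads (2.48 to 2.50). In the imDC reads it had 577723, fewer than let-7f-5p (736368) and let-7a-5p (630593). The level of miR-21-5p was 19982 in HSC, so both dendritic cell libraries lay above the stem cells. MiR-652-3p stood at 807 and 80.2 ppm and was 12.0-fold lower (10.5 to 13.7). MiR-374-5p, at 199 and 23.01 ppm, was 9.43-fold lower (8.63 to 10.3), and miR-15b-3p, at 130 and 13.6, was 12.5-fold lower (9.31 to 17.2). Of the miR-15b-3p reads 52.7% in imDC and 10.4% in maDC were shorter than 21 nt, and with the longer reads it was 7.09-fold lower.

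The miR-15 and miR-16 family, known for targets in the cell cycle, had 7 of 10 miRNAs at least 2-fold lower and a median of -1.66, against 46% and -0.86 over all. MiR-16-5p stood at 4137 and 1691 ppm, and miR-322-5p at 409 and 73.7. The miR-148 and miR-152 family, reported to act on Camk2a in dendritic cells, had 3 of 4 lower against the same 46%, with miR-148a-3p at 320 and 93.4 ppm and miR-152-3p at 857 and 826. MiR-152-3p, which has the same seed as miR-148a-3p, thus held its deposited level, and DCreg had 2258. The miR-181 family, known in lymphoid development, had 5 of 7 lower (71.4%, against 46%) and a median of -1.51. Of the lower ones, miR-181a-1-3p had 1 read in each library and miR-181c-3p had 0. Over the 5 members with 50 reads the recounted median was -1.45, near the -1.36 over all 282. Both abundant members were under 2-fold on the deposited values, miR-181a-5p at 3926 and 2253 ppm and miR-181b-5p at 2627 and 1831. The 2 miR-26 miRNAs were under 2-fold.

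Some families held members that went opposite ways. With the miR-34 seed GGCAGUG, known as a p53-responsive family, miR-34a-5p stood at 208 and 52.1 ppm and was 4.93-fold lower in the reads (4.16 to 5.88). MiR-34c-5p stood at 127 and 237 ppm, with a recounted ratio of 1.43 (1.28 to 1.60), and miR-34b-5p at 7.81 and 15.4. MiR-449c-5p, which shares the seed, had 213 and 11 reads. The 5 miRNAs of this seed thus ran from -4.24 to 0.97 on the log2 scale. In the miR-29 family, known to target collagens and DNA methyltransferases, miR-29a-3p stood at 48046 and 54571 ppm and miR-29b-3p at 774 and 416. MiR-29b-3p was 2.86-fold lower in all reads and 1.18-fold lower with reads of 21 nt or longer.

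Most miRNAs linked to Toll-like receptor and NF-kB signalling were neither 2-fold higher nor 2-fold lower in maDC. Of 20 on the list 1 (5%) was at least 2-fold higher (miR-221-5p) against 10.7% over all 328, and 3 (15%) were lower against 46%. The other 16 were neither, and the median was -0.39 against -0.86. That median lay above 0 under the TMM scaling (0.16), the median of ratios (0.28) and the total without let-7 (0.05). MiR-155-5p, the best-known LPS-induced miRNA of myeloid cells, stood at 2609 ppm in imDC and 1651 in maDC, against 47.6 in HSC and 141 in DCreg. It was 1.58-fold lower in maDC on the deposited values and 1.96-fold lower in the reads (1.90 to 2.02). The gap between either dendritic cell library and the stem cells was far wider than the gap between imDC and maDC.

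MiR-146a-5p, an NF-kB target that limits TRAF6 and IRAK1, stood at 1105 and 309 ppm and was 4.28-fold lower in the reads (4.02 to 4.56). MiR-146b-5p, with the same seed, stood at 89225 and 67585, 1.32-fold lower and 1.95-fold lower in the reads. Of this seed, miR-146b-5p was far the more abundant strand in both libraries. Over the 6 scalings of the deposited values the log2 ratio ran from -0.89 to 0.01 for miR-155-5p, from -0.64 to 0.27 for miR-146b-5p and from -2.07 to -1.17 for miR-146a-5p, so the sign of the first 2 depends on the scaling. MiR-9-5p, which targets Nfkb1, stood at 739 ppm in imDC and 156 in maDC, and at 0.946 in HSC and 6.24 in DCreg. Its reads were 6.09-fold lower in maDC (5.78 to 6.42), while those of its partner miR-9-3p were 1.40-fold lower. MiR-147-3p, known to be induced through Toll-like receptors, stood at 745 and 589 ppm; its reads were 2.41-fold lower (2.28 to 2.56), or 1.04-fold lower with reads of 21 nt or longer. MiR-132-3p (455 and 374) and miR-212-5p (189 and 193), which share a transcript responsive to CREB, were near level.

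Of the 11 myeloid miRNAs 5 were at least 2-fold lower and 6 were neither, so the share that was lower, 45.5%, was near the 46% over all. MiR-223-3p, the granulocyte-enriched miRNA, stood at 2264 and 635 ppm and was 4.24-fold lower in the reads (4.06 to 4.44). MiR-142-5p stood at 9513 and 13196 ppm with a recounted ratio of 1.12 (1.10 to 1.13), while its partner miR-142-3p stood at 861 and 366. MiR-22-3p stood at 2332 and 1122. Markers of blood cells outside this lineage did not share one direction. MiR-451, the red cell miRNA, had 68 reads in imDC and 0 in maDC, which is at least 18.8-fold lower by the interval, and lymphoid miR-150-5p had 53 and 2. On the same lymphoid list miR-181a-5p was lower by less than 2-fold, and miR-342-3p stood at 1814 ppm in imDC and 2098 in maDC. The part of other blood cells in these values was not tested.

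MiRNAs encoded close together were compared by cluster. Clusters were hairpins within 10 kb of each other on the same strand, and 35 had at least 2 miRNAs of the 328 with 50 reads in all or more. In 26 of them no miRNA was 2-fold higher, in 6 some were higher and others lower, and 29 (82.9%) had a median under 0. Over all 328 miRNAs 72.9% had a log2 ratio under 0 and 10.7% were 2-fold higher, and 20 of the 35 cluster medians lay below the median of all.

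The mir-363, mir-92a-2 and mir-19b-2 hairpins at chrX:52741693-52742066 (minus strand) had all 3 miRNAs lower and the lowest median, -4.10. Values for miR-92a-3p and miR-19b-3p are shared with the mir-17-92 hairpins at chr14:115043671-115044506 (plus strand), in exons of Mir17hg, since both loci give the same mature sequence. That cluster had 6 of 7 miRNAs lower and a median of -2.28. The mir-25, mir-93 and mir-106b hairpins at chr5:138165321-138165818, within Mcm7, had all 5 lower and a median of -1.51. These 3 clusters share seeds of the miR-17-92 group.

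Both mir-30 clusters, mir-30b with mir-30d at chr15:68337415-68341289 and mir-30c-1 with mir-30e in introns of Nfyc at chr4:120769534-120772697, had 4 of 4 miRNAs lower. The mir-449c and mir-449a hairpins in introns of Cdc20b at chr13:113035983-113037624 had both lower and a median of -3.32. The mir-15b and mir-16-2 hairpins in an intron of Smc4 at chr3:69009772-69009996 had 4 of 4 lower. The let-7d, let-7f-1 and let-7a-1 hairpins at chr13:48536012-48538272, exons of the non-coding gene 6720427I07Rik, had 2 miRNAs higher and the let-7f-1-3p strand lower.

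Arm use does not depend on the scaling between libraries. Reads were counted by mature strand, so those of a strand that several hairpins share cannot be assigned to a single hairpin. Among hairpins with at least 100 reads of both arms together in each library, 98 differed by less than 2 percentage points in their 5p share. In 79 of these 98 the minor arm held under 2% in both libraries, which leaves little room for a shift in points. Where both arms had 50 reads over both libraries, 22 of 39 such hairpins had arms whose ratios differed by 2-fold or more. The share differed by 10 points or more in 15 (10.6%) and by less in 127, toward 5p in maDC in 6 and toward 3p in 9, and the more abundant arm changed in 3.

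The widest shift was that of mir-193b, whose 5p share was 41.1% in imDC (35.1 to 47.3) and 85.1% in maDC (77.9 to 90.6). Its 3p strand had 156 reads in imDC and 20 in maDC while the 5p strand had 109 and 114. For mir-322 the 5p share was 44.1% (42.5 to 45.7) and 10.0% (8.86 to 11.3), since the 3p strand had 2108 and 2141 reads and the 5p strand 1661 and 239. For mir-34a it was 88.2% (85.8 to 90.2) and 56.4% (50.5 to 62.2), and for mir-17 48.3% (46.9 to 49.8) and 20.6% (18.9 to 22.4). In each of these 4 hairpins one strand had about the same number of reads in both libraries, or lost far fewer, while the other dropped.

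The miR-9 strands, listed under the hairpin mir-9-1, had a 5p share of 87.0% (86.4 to 87.6) in imDC and 60.6% (58.7 to 62.4) in maDC. The miR-9-5p value above was thus not matched by its partner strand. In mir-30e the share went the other way, from 68.5% (67.4 to 69.6) to 91.3% (89.8 to 92.7). In mir-200b, known in epithelial cells, the 5p strand had 23 and 66 reads and the 3p strand 304 and 120, a 5p share of 7.03% (4.51 to 10.4) and 35.5% (28.6 to 42.8).

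**Figure D4:**
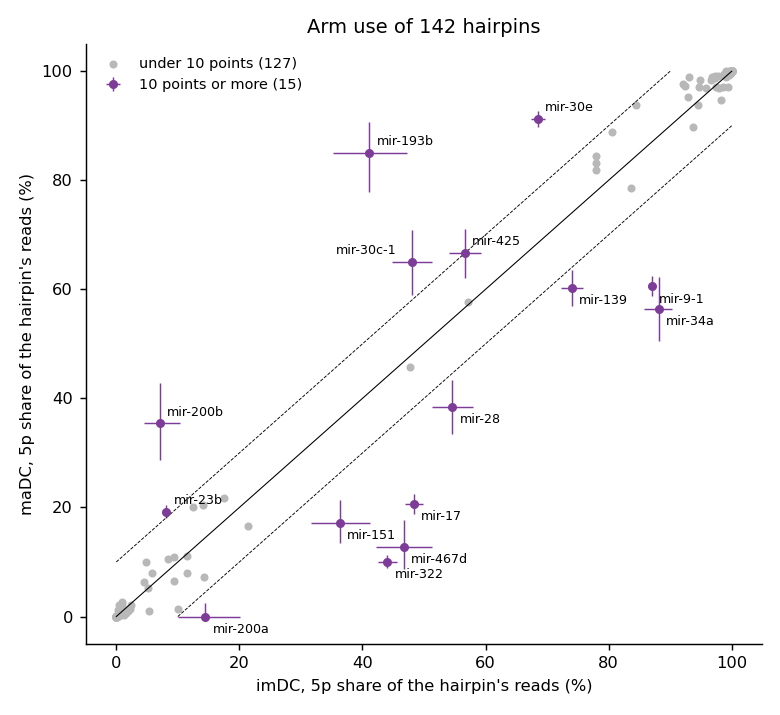
Share of each hairpin's reads that come from the 5p arm in imDC (x axis) and maDC (y axis), in percent, for the 127 hairpins under 10 points (grey) and the 15 at or over it; bars are exact 95% binomial intervals for the latter, and dashed lines mark 10 points. Most hairpins sit at the corners on the solid line of equality, and mir-193b (41.1% and 85.1%) and mir-322 (44.1% and 10.0%) lie farthest from it.

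The 2 strands of a hairpin often differed in their ratio. In 77 hairpins each arm had 50 or more reads over both libraries. Both arms were lower in 61 of them and both higher in 2 at the recounted total, where 83.0% of all 282 miRNAs with 50 reads were under 0. Under the median of ratios, where 49.3% were, both arms were lower in 26, both higher in 17 and opposite in 34. The log2 ratios of the arms had a Spearman correlation of 0.13 and a Pearson correlation of 0.18 (n = 77), and the median gap between arms was 1.16. With the main arm taken from the HSC library, which is not compared here, the minor strand took a smaller share in maDC in 49 hairpins and a larger one in 28. The median log2 ratio was -1.31 for main strands and -2.10 for minor strands. The gap was 1.16 at the median over the 42 hairpins with a 5p main strand and 0.04 over the 35 with a 3p main strand. For some hairpins the HSC choice rests on few reads, such as 13 and 11 for mir-193b and 7 and 4 for mir-9-1. The arms of mir-151 were tied at 103 reads, and 3p was taken. Some strands enter under more than one hairpin, such as miR-16-5p under mir-16-1 and mir-16-2.

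The lower partner strands included those of very abundant miRNAs. The minor strand of mir-140 had 82 and 11 reads while its main strand miR-140-3p had 205990 and 250613. The minor strand of mir-423 had 2918 and 542 reads against 39382 and 52451 of the main one. The minor strand of mir-185 had 276 and 66 reads, of which 91.7% in imDC and 39.4% in maDC were shorter than 21 nt; with reads of 21 nt or longer it was not lower (23 and 40 reads).

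Reads of maDC were longer and fewer of them ended before the annotated 3′ end. Reads of 16 to 20 nt made up 9.99% of matched reads in imDC and 2.50% in maDC, against 8.52% in HSC and 5.27% in DCreg, and reads of 22 nt made up 51.5% and 64.5%. Over 117 miRNAs with at least 200 reads of their own in each library, the share of reads ending before the annotated 3′ end had a median of 22.2% in imDC and 12.9% in maDC. The share was lower in maDC for 81 and higher for 35. The share ending exactly at the annotated end was 52.6% and 62.6% over all reads of these miRNAs together, but per miRNA it was higher in maDC for 58 and lower for 57. The share ending before the annotated end was lower in maDC by 10 points or more in 35 miRNAs (29.9%) and higher by as much in 7 (5.98%). For the share ending exactly at it, 16 were higher and 11 lower by as much. Over the miRNAs with at least 50 reads in every library the medians of the share ending before the annotated end were 23.1% in imDC and 13.3% in maDC. They were 26.2% in HSC and 23.01% in DCreg. This share was lowest in maDC for 69 of these miRNAs, in imDC for 26, in HSC for 8 and in DCreg for 3.

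The forms of 3 miRNAs show the difference, with the bases after the 20th in capitals. For miR-29b-3p the 20-nt form held 61.7% of its imDC reads (4744 copies) and 4.36% of its maDC reads (122), while the 23-nt form held 15.1% (1164) and 71.7% (2008). For miR-210-3p, known as the hypoxia-induced miRNA, the 20-nt form held 31.3% and 4.13%, and the 22-nt form 24.6% and 64.8%. For miR-147-3p a form of 17 nt held 30.7% (1219 copies) and 0.464% (8), and the 22-nt form 26.3% and 72.8%.
miR-29b-3p, 20 nt: uagcaccauuugaaaucagu
miR-29b-3p, 23 nt: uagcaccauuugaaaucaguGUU
miR-210-3p, 20 nt: cugugcgugugacagcggcu
miR-210-3p, 22 nt: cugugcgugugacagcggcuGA
miR-147-3p, 17 nt: gugugcggaaaugcuuc
miR-147-3p, 22 nt: gugugcggaaaugcuucugcUA

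Counted over all forms, the shortened share of miR-29b-3p was 80.9% in imDC (80.0 to 81.7) and 19.8% in maDC (18.4 to 21.4), against 85.0% in HSC and 38.5% in DCreg. For miR-147-3p it was 62.8% (61.3 to 64.3) and 4.70% (3.75 to 5.80), and for miR-27b-5p 72.2% (70.3 to 74.1) and 12.8% (9.02 to 17.4). For miR-92a-3p it was 45.9% (45.5 to 46.4) and 6.98% (5.63 to 8.54). In DCreg the same 3 miRNAs had 11.6%, 21.2% and 13.2%, nearer to maDC than to imDC. Let-7i-5p, at 43.9% and 15.9%, differed in this from let-7f-5p, at 7.76% and 7.87%.

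A few miRNAs went the other way. MiR-23a-3p ended early in 8.39% of imDC reads (8.13 to 8.66) and 31.6% of maDC reads (30.8 to 32.4), miR-15b-5p in 49.5% and 68.0%, and miR-27a-3p in 60.4% and 77.3%. The near-identical miR-27b-3p had 78.9% and 43.5%. These shares leave out the reads that match both miR-27 strands, so the opposite directions hold only for reads of their own. With the shared reads divided, reads under 21 nt made up 88.3% in imDC and 80.2% in maDC for miR-27a-3p. For miR-27b-3p they made up 92.6% and 55.5%, so this share was lower in maDC for both strands. The cause of the shift was not tested.

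The shorter imDC reads entered the recounted ratios. Over 116 miRNAs the shortened share in imDC and the recounted log2 ratio had a Spearman correlation of -0.32 and a Pearson correlation of -0.30. With reads of 21 nt or longer, all 128 miRNAs that were 2-fold lower on the deposited values and kept 50 reads were still lower, 127 of them 2-fold. Of 23 higher ones 22 were still higher and 8 were 2-fold higher. The median log2 ratio was -1.45 in the recount with these longer reads, against -0.86 on the deposited values. With that common downward shift, lower calls were kept more easily than higher ones. The kept counts therefore cannot show whether the lower calls are free of the read-length difference.

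**Figure D5:**
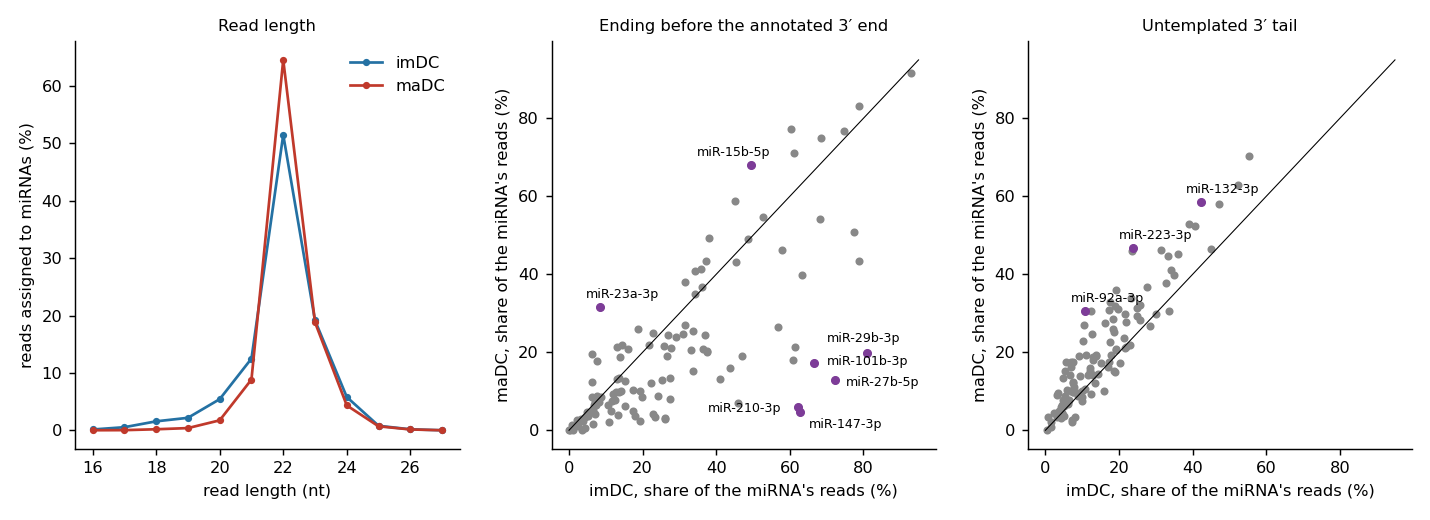
Left, length of the reads matched to miRNAs, as percent of matched reads in each library; middle and right, share of each miRNA's reads that end before the annotated 3′ end and that carry an untemplated 3′ tail, in percent, imDC on the x axis and maDC on the y axis (117 miRNAs, line of equality). Reads of 22 nt made up 51.5% in imDC and 64.5% in maDC, most points lie under the line in the middle panel, and most lie above it on the right.

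Bases at the 3′ end that do not match the hairpin, known as untemplated tails, were carried by a larger share of maDC reads in 92 of the 117 miRNAs. The median share was 12.5% in imDC and 17.4% in maDC, and 27 miRNAs (23.1%) were higher by 10 points or more and 0 lower. Over all reads of these miRNAs together the shares were 14.96% and 15.13%, and without let-7 the maDC share was higher by 5.60 points. Tails of A had a median of 5.15% and 7.17%, and tails of U 2.26% and 4.27%. Shortened and tailed reads are separate parts of the same total for each miRNA. The tail share is therefore not independent of the lower shortened share in maDC, and tails among reads that were not shortened were not tested.

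MiR-223-3p carried a tail on 23.8% of imDC reads (22.9 to 24.7) and 46.7% of maDC reads (44.7 to 48.8), most of it U (17.2% and 37.8%). MiR-132-3p had 42.2% and 58.5%, with U on 29.6% and 47.1%. The form of each with one added U, in capitals, held 5.76% and 16.6% of the miR-223-3p reads and 23.5% and 34.1% of the miR-132-3p reads.
miR-223-3p with U: ugucaguuugucaaauaccccaU
miR-132-3p with U: uaacagucuacagccauggucgU
MiR-92a-3p had tails on 10.8% and 30.5% of reads, mostly A (7.50% and 18.4%), and miR-222-3p on 10.6% and 27.1%.

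The 5′ end, which sets the seed, was the annotated one in 95.24% of imDC reads and 96.05% of maDC reads of these miRNAs. Without let-7 the maDC share of these pooled reads was lower by 4.89 points. Per miRNA the share was higher in maDC for 66 and lower for 47, with a median difference of 0.04 points. The share with the annotated 5′ end was lower by 10 points or more in 6 miRNAs (5.13%) and higher in 3 (2.56%). MiR-142-3p began at its annotated base in 26.3% of imDC reads (24.7 to 27.9) and 5.69% of maDC reads (4.35 to 7.29), and began later in 73.5% and 94.2%. Most reads of both libraries, and nearly all of those of maDC, thus carried a later seed than the annotated one. For miR-21-3p the later start held 37.1% and 59.8%.

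Forms of miR-142-3p and miR-101b-3p show the 5′ difference, with bases 2 to 8 of each read in capitals. The miR-142-3p form from the annotated base held 20.1% of its imDC reads and 2.84% of its maDC reads, while a 21-nt form that starts one base later held 34.6% and 34.5% and its 22-nt counterpart 25.7% and 36.2%. For miR-101b-3p reads that start early made up 57.1% in imDC and 34.6% in maDC. The gap was narrower among reads of 21 nt or longer, with an early share of 43.5% and 34.6%, than among shorter ones, with 65.6% and 35.3%. The 19-nt early form held 28.6% (9696 copies) and 1.26% (141), the 22-nt early form 8.41% and 15.4%, and the 22-nt annotated form 7.23% (2454) and 36.3% (4054). The early and annotated forms of miR-101b-3p shown here thus differ at both ends.
miR-142-3p, annotated start: uGUAGUGUuuccuacuuuaugg
miR-142-3p, later start, 21 nt: gUAGUGUUuccuacuuuaugg
miR-142-3p, later start, 22 nt: gUAGUGUUuccuacuuuaugga
miR-101b-3p, early start, 19 nt: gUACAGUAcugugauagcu
miR-101b-3p, early start, 22 nt: gUACAGUAcugugauagcugaa
miR-101b-3p, annotated start, 22 nt: uACAGUACugugauagcugaag
The commonest 5′ end differed between the libraries in 3 of the 117 miRNAs, among them miR-101b-3p, and the commonest templated 3′ end in 15.

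For some miRNAs the table and the reads could not be set side by side. MiR-191-5p stood at 31608 and 27120 ppm in the table, among the highest levels, with 0 matching reads in either sequence file. MiR-511-3p, a myeloid marker at 397 and 564 ppm, had 1 and 0 reads. MiR-3074-5p is the reverse complement of miR-24-3p. Its deposited values, 8506 and 5195, were nearly those of miR-24-3p, 8511 and 5152, yet its own reads numbered 13 and 3 against 55795 and 34856. MiR-374c-3p, the reverse complement of miR-374-5p, likewise had 1043 and 127 against 1047 and 103, with 97 and 27 reads of its own. Both members of such a pair are among the 328, with nearly equal deposited values and unequal reads.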

How the data were processed

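Per the labels' protocols, small RNA under 30 bases was gel purified, ligated to adaptors, amplified for 12 cycles and sequenced, and reads of other RNA classes were removed. Clean reads were compared with miRBase release 19, per the labels. The authors deposited one table of a score per mature miRNA and hairpin, called normalised counts in the file header; neither its normalisation nor the aligner is given in the sources used here. The authors also deposited, for every library, its distinct sequences and the read count of each. As the table holds no raw counts, no count model was used.

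From these, values were summed over hairpins and scaled to 1000000 (ppm), and 0.5 was added to deposited values before ratios were taken. Reads were recounted against the table's mature sequences by exact match of at least 16 nt, starting no more than 2 nt from the annotated 5′ end and leaving no more than 5 unmatched 3′ bases; the longest match was kept and ties were divided. Other scalings were the trimmed mean of M-values (TMM), the median of ratios, all reads of the sequence file, and the total without let-7 or without the 5 most abundant miRNAs. Hairpin positions came from RefSeq and GENCODE (GRCm38). The miRNAs named are the 10 with the largest ratio each way (100 ppm and 50 reads), the 10 most abundant per library, the 10 largest arm and read-end differences, and members of 13 lists; others were chosen after their values were seen. The members and lists were chosen with earlier results of these data known. Python 3.11.15, numpy 2.4.6, pandas 2.3.3, scipy 1.17.1 and matplotlib 3.10.9 were used, and the recount was tested on simulated reads.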

Additional observations from a re-analysis of the deposited data

Results flagged for a closer look

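Of the reads in the deposited sequence files, 19.6% in imDC and 15.96% in maDC matched no miRNA of the table and entered none of the comparisons above. They are given because no comparison used these reads. The other 2 libraries held 17.2% (HSC) and 19.8% (DCreg). What these reads are was not tested.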

How the results depend on the processing

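The 2-fold counts moved with the scaling and the filter. Against 35 higher miRNAs in maDC on the deposited values, there were 60 with the trimmed mean of M-values, 64 with the median of ratios, 22 scaled to all reads, 55 without let-7, 9 in the recount, 15 at 100 ppm and 141 with no filter on low values. Against 151 lower, there were 89 with the median of ratios, 72 at 100 ppm and 419 with no filter. The median of -0.86 became -0.31, -0.19, -1.09, -0.72, -0.42, -1.44 and -0.69 with the trimmed mean, the median of ratios, all reads, without the 5 most abundant, without let-7, in the recount and with no filter. In the recount, 9 higher, 173 lower and a median of -1.44 became 64, 69 and -0.14 with the trimmed mean and 69, 64 and -0.054 with the median of ratios, and the median was -1.57 when no unmatched 3′ base was allowed. Hairpins with a shift of arm use numbered 31 at 20 reads, 6 at 500 reads and 23 on the deposited values, against 15. The share with the annotated 5′ end, 0.81 points higher in maDC over all reads, was lower by the mean over miRNAs (-0.67) and without let-7 (-4.89). Shortened reads, -9.07 points, came to -7.56 by the mean and -11.4 without let-7, and their median of -2.81 to -7.56 as a mean. Tails, 0.17 points, came to 4.85 by the mean and 5.60 without let-7, and their median of 3.26 to 4.85 as a mean. Fewer or more miRNAs enter where a filter is changed; for the scalings the let-7 share moves with the counts, and the cause was not tested further.

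Of the 84 miRNAs named by the rule 51 were 2-fold different, and 36 to 49 of them were still so under each of the 6 other scalings or values. The restriction to reads of 21 nt or longer and the arm counts by scaling were chosen after seeing the data. Counts of a few reads limit miR-30d-3p, miR-363-3p and the let-7 partner strands. No paired analysis was possible because each cell type had 1 library, and for the same reason leaving out a replicate was not run.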
